A study of Mus musculus with 44 samples.

Results

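Bone marrow of mice given 2-butoxyethanol (2BE) was compared with bone marrow of vehicle mice at 7 d, across all genes of the array. The comparison takes 10 of the 44 arrays of the study: the 5 whose titles name marrow, 2BE and this time, and the 5 whose titles name marrow, vehicle and this time. All 44 arrays are of B6C3F1 mice, a hybrid laboratory strain, and cover liver, spleen and marrow. 2BE is a glycol ether solvent whose oxidised metabolite, butoxyacetic acid, is known to lyse red blood cells of rodents. In the treatment field of the labels the 2BE arrays read reduced oxygen and the vehicle arrays control; the groups here follow the titles. The marrow came from the right humerus, and its RNA was purified with a kit for marrow. Dose, route, sex and age are not given in the sources used here. Nothing in the labels says that the arrays of a group are separate animals, so p-values measure only the spread between these arrays, which may be technical.

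Bone marrow makes red cells, granulocytes, platelets and B lymphocytes from shared stem and progenitor cells. B cell precursors first rearrange their immunoglobulin genes with the Rag recombinase, then carry a pre-B cell receptor built with surrogate light chains, and depend on stromal cells that supply Cxcl12 and interleukin 7. Red cell precursors divide under erythropoietin, take up iron through the transferrin receptor, make haem and globin, and are shed from the marrow when mature.

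Values are given as log2(intensity + 1) of 1 probe set per gene, and a log2 fold change is the 2BE mean minus the vehicle mean on this scale, with its standard error (SE). Adjusted p-values are from limma with Benjamini-Hochberg adjustment over 18193 genes, and a gene is said to have risen or fallen only where this p was under 0.05. A signed value in brackets after a gene is its log2 fold change, and a median of a list is the median log2 fold change of its measured genes. Array medians were 86.1 to 89.4 intensity units, and the first principal component, with 50.5% of the variance, put the vehicle arrays at -16.1 to -9.71 and the 2BE arrays at 6.46 to 20.9. By this test 3651 genes (20.1%) changed, of which 1710 rose (9.4%) and 1941 fell (10.7%). Changes of at least 2-fold were mostly falls, with 89 falls (0.489%) and 5 rises (0.0275%). All 2BE arrays lay above all vehicle arrays in 7.55% of genes and below them in 8.45%. In a fit that took its spread from marrow and spleen arrays together, 2324 genes changed, 1167 upward and 1157 downward.

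Most genes fell in the B lineage lists from lymphoid progenitors to mature B cells. Of 70 measured genes in 7 B lineage lists, 58 fell and 0 rose in the limma test (0 also at an unadjusted p under 0.05), against 10.7% of all genes that fell, and the median log2 fold change was -0.73 against 0.01 over all genes. These are whole marrow samples, in which fewer cells of a type and less RNA per cell cannot be told apart. The antigen receptor loci are rearranged early, and of 8 measured genes of early lymphoid progenitors 6 fell, with a median of -1.07. At an unadjusted p under 0.05, 7 were lower. Flt3 and Satb1 did not pass the limma test, so a fall of every early gene is not shown. Rag1, a subunit of the recombinase, measured 9.82, 9.94, 10.48, 10.19 and 9.75 in vehicle replicates 1 to 5 and 8.78, 7.77, 8.003, 7.40 and 8.63 in 2BE replicates 1 to 5. Every 2BE array was below every vehicle array, with 2BE replicates 1 and 5 the nearest, and the fall was 3.79-fold (log2 fold change -1.92, SE 0.23, adjusted p = 6.03e-05). Rag2, its partner, fell 2.13-fold (log2 fold change -1.09, SE 0.12, adjusted p = 4.09e-05). Dntt, the polymerase that adds bases at the joins, fell from 9.58 ± 0.22 to 8.53 ± 0.30 (SD, n = 5 each), and Il7r, the receptor for interleukin 7, from 10.13 ± 0.22 to 8.94 ± 0.43. Ly6d, which marks lymphoid progenitors committed to the B lineage, fell by 1.18 on the log2 scale, and the groups of these 3 genes did not overlap.

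Pre-B cell receptor genes fell as a group. Vpreb1, Vpreb3 and Igll1 belong to the surrogate light chain family, and Cd79a is the signalling chain shared by the pre-B and mature receptors. The promoter windows of 4 of the genes that fell are printed to show short motifs named for factors of this lineage: the E-box CAGGTG, bound by E proteins such as Tcf3, and the octamer ATTTGCAT, bound by Oct factors that recruit Pou2af1. The windows are 300 bases each around the annotated start (RefSeq, GRCm38.p6), in the direction of the gene, were chosen because they hold a motif, and have the match in capitals.
Vpreb3: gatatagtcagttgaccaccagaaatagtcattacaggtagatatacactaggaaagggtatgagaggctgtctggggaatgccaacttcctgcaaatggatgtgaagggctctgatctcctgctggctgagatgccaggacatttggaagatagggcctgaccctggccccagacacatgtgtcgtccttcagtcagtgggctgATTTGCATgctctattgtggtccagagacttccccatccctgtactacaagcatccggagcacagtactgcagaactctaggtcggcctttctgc
Vpreb1: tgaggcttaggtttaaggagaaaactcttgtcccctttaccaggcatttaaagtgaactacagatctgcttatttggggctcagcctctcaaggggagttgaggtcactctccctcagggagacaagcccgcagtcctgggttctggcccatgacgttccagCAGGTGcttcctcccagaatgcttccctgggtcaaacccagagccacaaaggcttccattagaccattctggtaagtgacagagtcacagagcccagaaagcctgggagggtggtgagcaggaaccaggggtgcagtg
Cd79a: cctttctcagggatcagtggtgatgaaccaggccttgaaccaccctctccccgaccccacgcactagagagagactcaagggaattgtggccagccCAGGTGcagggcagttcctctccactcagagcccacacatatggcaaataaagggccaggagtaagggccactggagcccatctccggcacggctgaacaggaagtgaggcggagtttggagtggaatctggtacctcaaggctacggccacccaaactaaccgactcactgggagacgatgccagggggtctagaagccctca
Rag1: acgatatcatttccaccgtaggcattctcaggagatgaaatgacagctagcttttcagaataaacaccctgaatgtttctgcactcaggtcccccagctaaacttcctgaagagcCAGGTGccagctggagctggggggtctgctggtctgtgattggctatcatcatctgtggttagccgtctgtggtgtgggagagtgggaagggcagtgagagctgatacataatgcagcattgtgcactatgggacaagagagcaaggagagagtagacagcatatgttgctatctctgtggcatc
The octamer lies 45 bases before the start in the window of Vpreb3 (chr10:75948050-75948349, plus strand). The E-box lies 88 bases before the start in Vpreb1 (chr16:16869206-16869505, minus strand), 154 before it in Cd79a (chr7:24897247-24897546, plus strand) and 135 before it in Rag1 (chr2:101649483-101649782, minus strand). Counted on both strands, CAGGTG was in 20 of 53 windows (37.7%) of 34 matched genes of the first 4 B lineage lists, which hold 42 measured genes, and in 20.2% of 32851 windows of all genes. ATTTGCAT was in 3 of the 53 (5.66%) and in 1.74% of all. These matches describe the letters of the windows only.

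Vpreb3 measured 10.58, 10.70, 10.996, 10.97 and 10.72 in the vehicle arrays and 9.47, 8.40, 8.78, 8.13 and 9.43 in the 2BE arrays, which lay below throughout, and it fell 3.87-fold (log2 fold change -1.95, SE 0.22, adjusted p = 4.08e-05). Vpreb1 measured 10.14, 10.82, 10.30, 10.35 and 10.43 against 9.38, 8.83, 9.15, 8.99 and 9.56, a 2.34-fold fall (log2 fold change -1.23, SE 0.14, adjusted p = 4.36e-05). For Igll1 the values were 9.99, 10.72, 10.32, 10.27 and 10.38 against 9.26, 8.79, 9.17, 8.85 and 9.60, 2.30-fold lower (log2 fold change -1.20, SE 0.15, adjusted p = 8.57e-05). In all 3 genes 2BE replicate 5 or 1 was the highest of its group and still under the lowest vehicle array. Another Igll1 probe set gave -0.08. In the list of pro-B and pre-B genes 9 of 10 fell, with a median of -1.03. They included Sox4 (-1.41), a factor needed for pro-B cells, Lef1 (-0.86), a Wnt pathway factor of the same stage, and Akap12 (-1.70), an anchor for protein kinase A. Other probe sets of Sox4 gave -1.19 to 0.09.

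Of 13 transcription factors of the B lineage 12 fell, with a median of -0.75. Bach2, a repressor that holds back the plasma cell programme, had the largest fall, from 10.59, 10.55, 11.12, 10.84 and 10.60 to 9.34, 8.31, 8.54, 8.06 and 9.36, or 4.05-fold (log2 fold change -2.02, SE 0.22, adjusted p = 4.01e-05). Spib, an Ets family factor, measured 11.21 to 11.66 in vehicle and 9.17 to 10.19 in 2BE arrays, 3.39-fold lower (log2 fold change -1.76, SE 0.17, adjusted p = 1.86e-05). The groups were apart in both genes. Ebf1 and Pax5, which set and keep B cell identity, fell 2.32-fold (log2 fold change -1.21, SE 0.16, adjusted p = 0.000152) and 1.68-fold (log2 fold change -0.75, SE 0.08, adjusted p = 4.09e-05). Irf4 (-1.76) and Foxo1 (-0.91), which act in light chain and Rag expression, and the coactivator Pou2af1 (-1.60) fell too. Other probe sets gave -0.47 for Irf4 and -0.98 to 0.15 for Foxo1. Tcf3, an E protein made in many cell types, measured 9.75 to 10.06 in vehicle and 9.34 to 9.70 in 2BE arrays (log2 fold change -0.39, SE 0.08, adjusted p = 0.00218).

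All 11 measured genes of the B cell receptor and its signalling fell, with a median of -1.17, and the groups did not overlap in any of the 11. Cd79a, the receptor's signalling chain, measured 11.04, 11.12, 11.39, 11.41 and 11.26 in vehicle and 9.82, 9.16, 9.31, 8.83 and 9.84 in 2BE arrays, 3.61-fold lower (log2 fold change -1.85, SE 0.16, adjusted p = 1.06e-05). Its partner Cd79b fell 3.18-fold and the adaptor Blnk 2.88-fold (adjusted p = 1.37e-05 and 1.86e-05). The coreceptors Cd72 and Cd22, which dampen the signal, fell by 1.68 and 1.17 on the log2 scale, and the kinase Blk by 1.23.

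Genes of mature B cells fell in 9 of 10, with a median of -0.92. Ms4a1, which encodes CD20, measured 10.29, 10.24, 10.64, 10.68 and 10.54 against 9.38, 8.09, 8.66, 8.49 and 9.32, 3.22-fold lower (log2 fold change -1.69, SE 0.20, adjusted p = 7.67e-05). Fcer2a, the low-affinity IgE receptor of follicular B cells, measured 7.32 to 7.80 in vehicle and 6.39 to 6.69 in 2BE arrays (-0.95). Tnfrsf13c, the receptor for the survival factor Baff, fell 2.48-fold, and H2-Ob and Fcmr fell 2.42-fold and 2.12-fold. Other genes with large falls were named for their size alone. Cpm, a membrane carboxypeptidase, had the largest fall named, with 8.59 to 9.24 in vehicle and 5.91 to 7.73 in 2BE arrays (4.95-fold, log2 fold change -2.31, SE 0.28, adjusted p = 7.48e-05), and Fcrla and Niban3 fell 3.65-fold and 3.90-fold. Myl4, a myosin light chain, fell too (-1.87), although another of its probe sets gave -0.0038.

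Of 10 plasma cell genes 3 fell, with a median of -0.18. Mzb1, a chaperone of immunoglobulin assembly that B cells also express, fell 2.27-fold (log2 fold change -1.18, SE 0.11, adjusted p = 1.83e-05), and Sdc1, the plasma cell surface proteoglycan CD138, fell by 0.80 on the log2 scale. Jchain, which joins IgA and IgM chains, had vehicle values of 11.65, 11.49, 11.02, 11.29 and 11.64 and 2BE values of 11.06, 11.19, 11.20, 11.18 and 11.16. These overlapped and the difference did not pass (log2 fold change -0.26, SE 0.10, adjusted p = 0.0863), although it passed when vehicle replicate 3 was left out (-0.36). Prdm1, the master factor of plasma cells, was near 5.84 in vehicle and 5.79 in 2BE (log2 fold change -0.05, SE 0.08, adjusted p = 0.732). These means lie under the median of all probe sets (6.47), where a fall may be understated. All 8 measured genes of MHC class II presentation fell, with a median of -0.51; Cd74, the invariant chain, fell 1.61-fold, with 12.55 to 12.74 in vehicle and 11.82 to 12.34 in 2BE arrays. H2-Aa and H2-Ab1, its partner chains, fell by 0.58 and 0.57 on the log2 scale, and in H2-Ab1 2BE replicate 5 stood at 10.25 while the other 4 lay at 9.70 to 9.85.

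**Figure D1:**
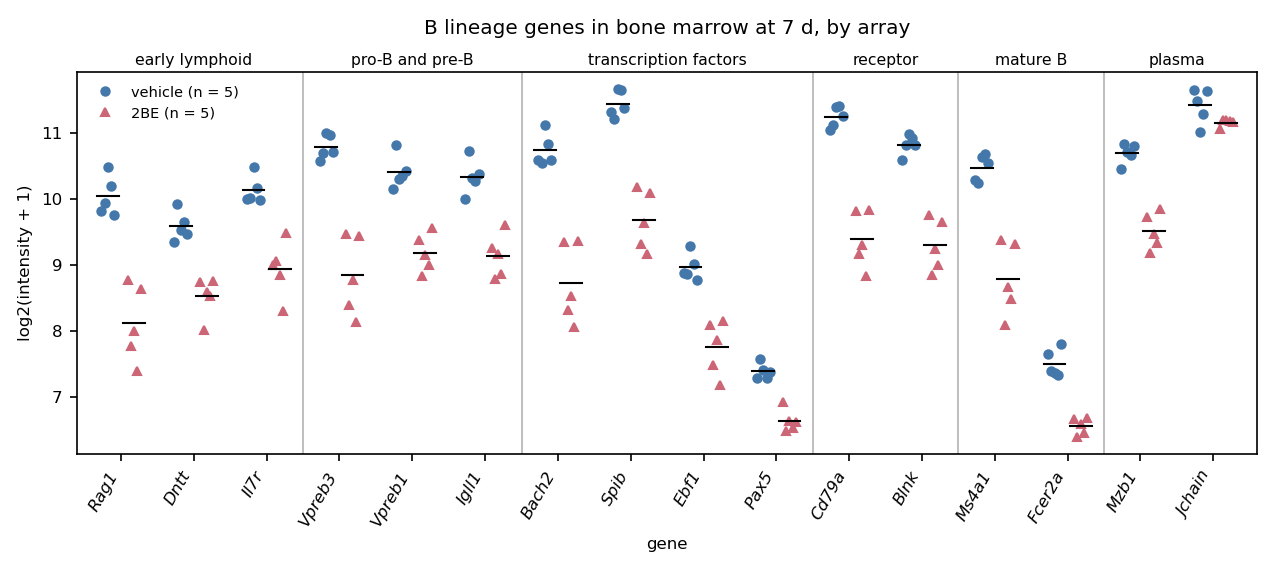
Values of 16 B lineage genes on each array, as log2(intensity + 1), grouped by stage along the x axis; blue circles are the 5 vehicle arrays, red triangles the 5 2BE arrays and black bars the group means. The 2BE arrays lie below all vehicle arrays in every gene shown but Jchain, where they sit at 11.06 to 11.20 within the vehicle range.

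Erythroid genes rose together by small steps. Of 78 measured genes in 7 erythroid lists, 57 rose and 3 fell, against 9.4% and 10.7% of all genes, with a median log2 fold change of 0.38. In 4 lists that follow red cell development, 12 of 13 progenitor and transcription factor genes, 10 of 11 haem synthesis genes, 15 of 15 membrane genes and 8 of 12 late maturation genes rose, with medians of 0.39, 0.40, 0.51 and 0.31. In the fit over marrow and spleen together the same lists gave 5, 6, 6 and 2 rises. With each of the 10 arrays left out alone these counts ranged from 11 to 12, 8 to 10, 14 to 15 and 7 to 9.

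Klf1, the erythroid Krüppel-like activator, measured 12.21, 12.62, 12.42, 12.48 and 12.41 in vehicle and 13.01, 12.90, 12.91, 12.91 and 12.78 in 2BE arrays, a 1.39-fold rise (log2 fold change 0.47, SE 0.07, adjusted p = 0.000406). Gata1, the master factor of the lineage, measured 10.57, 10.90, 10.63, 10.79 and 10.85 against 11.31, 11.14, 11.24, 11.31 and 11.07 (1.38-fold, log2 fold change 0.47, SE 0.07, adjusted p = 0.000504). Gfi1b, a repressor that acts with it, measured 9.97, 10.10, 9.95, 10.14 and 10.09 against 10.86, 10.83, 10.64, 10.77 and 10.47 (1.59-fold, log2 fold change 0.66, SE 0.07, adjusted p = 4.45e-05). In all 3 genes the groups were apart, and vehicle replicate 1 was at or near the bottom of its group. Sox6, which drives late erythroid survival and maturation, rose 1.56-fold and Tal1 1.40-fold.

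The windows of 3 erythroid genes are printed because each holds GATAA, the core of the sites that Gata factors bind, here as its reverse complement in capitals (RefSeq, GRCm38.p6, 300 bases around the annotated start). Epor encodes the erythropoietin receptor, and Rhag a channel of the red cell membrane.
Epor: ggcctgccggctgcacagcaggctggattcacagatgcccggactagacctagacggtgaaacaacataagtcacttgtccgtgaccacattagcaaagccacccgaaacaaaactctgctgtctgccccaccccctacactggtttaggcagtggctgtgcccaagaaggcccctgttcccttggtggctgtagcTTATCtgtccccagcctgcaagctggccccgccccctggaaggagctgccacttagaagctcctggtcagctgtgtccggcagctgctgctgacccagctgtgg
Rhag: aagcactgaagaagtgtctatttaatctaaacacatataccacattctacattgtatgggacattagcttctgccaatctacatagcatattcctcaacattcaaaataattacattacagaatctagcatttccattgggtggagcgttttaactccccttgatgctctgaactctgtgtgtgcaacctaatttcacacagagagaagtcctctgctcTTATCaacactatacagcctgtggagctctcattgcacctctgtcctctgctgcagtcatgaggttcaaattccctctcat
Klf1: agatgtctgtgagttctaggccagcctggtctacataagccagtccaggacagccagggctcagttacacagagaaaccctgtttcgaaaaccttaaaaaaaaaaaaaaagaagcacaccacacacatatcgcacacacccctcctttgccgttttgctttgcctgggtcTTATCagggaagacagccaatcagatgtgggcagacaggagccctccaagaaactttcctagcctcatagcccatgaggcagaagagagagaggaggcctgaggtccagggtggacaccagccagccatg
The match lies 54 bases before the start in Epor (chr9:21963527-21963826, minus strand), 31 before it in Rhag (chr17:40810899-40811198, plus strand) and 80 before it in Klf1 (chr8:84901732-84902031, plus strand). On both strands GATAA was in 21 of 58 windows (36.2%) of 41 matched genes of the 4 lists, of 51 measured, and in 25.4% of windows of all genes. The same 58 windows held CAGGTG in 15.5% and ATTTGCAT in 0.0%, and the 53 B lineage windows held GATAA in 18.9%.

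Epor itself measured 10.27, 10.60, 10.35, 10.48 and 10.49 in vehicle and 10.999, 10.95, 10.99, 10.97 and 10.76 in 2BE arrays (1.41-fold, log2 fold change 0.50, SE 0.07, adjusted p = 0.000215), with 2BE replicate 5 the lowest of its group and still above all vehicle arrays. Among 9 measured targets of erythropoietin and STAT5 signalling, 4 rose and 1 fell. Socs3, a feedback inhibitor of cytokine receptors, rose most, from 6.98, 6.55, 6.60, 7.04 and 6.54 to 7.18, 8.46, 7.72, 7.92 and 8.36, or 2.27-fold (log2 fold change 1.19, SE 0.20, adjusted p = 0.000814); its 2BE arrays spread widely, with replicate 1 the lowest, and its 2 other probe sets gave 0.55 and 1.29. The feedback inhibitor Cish rose by 0.50 with overlapping groups and the kinase Pim1 by 0.48, while Socs2, of the same inhibitor family, fell by 0.28 on the log2 scale. The fall of Socs2 did not pass with the mean of all its probe sets (-0.12).

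Membrane and cytoskeleton genes of the red cell rose in all 15 measured members, by 0.23 to 0.72 on the log2 scale. Rhag measured 11.34, 11.66, 11.51, 11.73 and 11.54 against 12.16, 12.35, 12.24, 12.39 and 12.23, 1.64-fold higher (log2 fold change 0.72, SE 0.07, adjusted p = 2.39e-05). Epb42, which ties band 3 to the skeleton, measured 9.22, 9.80, 9.64, 9.87 and 9.74 against 10.44, 10.24, 10.36, 10.22 and 10.18, 1.55-fold higher (log2 fold change 0.63, SE 0.10, adjusted p = 0.000672). Tmod1, which caps actin filaments, rose 1.64-fold, and Ank1, the ankyrin anchor, 1.57-fold. Slc4a1, band 3 itself, measured 13.63 to 13.92 in vehicle and 13.96 to 14.17 in 2BE arrays, 1.22-fold higher (log2 fold change 0.29, SE 0.06, adjusted p = 0.00526).

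Of 11 haem synthesis genes 10 rose, and all 11 were higher at an unadjusted p under 0.05. Cpox, the coproporphyrinogen oxidase, measured 10.40, 10.88, 10.57, 10.64 and 10.71 against 11.28, 11.000, 11.07, 11.35 and 11.09 (1.43-fold, log2 fold change 0.52, SE 0.09, adjusted p = 0.000935). Ppox, the next enzyme, rose 1.41-fold and Abcb10, a mitochondrial transporter of red cell precursors, 1.42-fold. Alas2, the erythroid enzyme of the first step, measured 13.41, 13.78, 13.59, 13.68 and 13.72 in vehicle and 13.73, 13.91, 13.79, 13.81 and 13.75 in 2BE arrays, which overlapped. It did not pass in the limma test (log2 fold change 0.16, SE 0.07, unadjusted p = 0.0323, adjusted p = 0.114). Its change was not tested against that of the other enzymes. Of 6 measured globin genes 2 rose; one, Hbb-b2, measured 12.78, 12.68, 12.77, 12.65 and 12.47 against 12.67, 13.18, 13.47, 13.36 and 12.95 (1.37-fold, log2 fold change 0.45, SE 0.12, adjusted p = 0.0193). Its groups overlapped, and it did not pass without vehicle replicate 5 or without 2BE replicate 4 (0.41 and 0.40), which leaves 1 globin gene of the 6. Another probe set of Hbb-b2 gave 0.05. Globin genes share near-identical sequence, so these values are uncertain. Of the late maturation genes, Hemgn, a nuclear protein of erythroblasts, rose by 0.28, Ypel4 by 0.49 and the ubiquitin ligase subunit Fbxo7 by 0.46.

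Iron genes moved in both directions, with 6 of 13 higher and 2 lower. Tfrc, the transferrin receptor, measured 12.83, 13.04, 12.92, 13.06 and 12.96 in vehicle and 13.62, 13.55, 13.63, 13.61 and 13.62 in 2BE arrays, 1.56-fold higher with a narrow spread (log2 fold change 0.64, SE 0.05, adjusted p = 8.74e-06), and its 2 other probe sets gave 1.06 and 1.13. Steap3, the endosomal ferrireductase that acts with it, rose 1.53-fold and Tfr2, its relative, 1.33-fold. Hmox1, the enzyme that breaks down haem and is high in macrophages, went the other way, from 10.65, 10.95, 10.71, 10.67 and 10.97 to 10.07, 9.68, 9.95, 9.99 and 10.06, 1.79-fold lower (log2 fold change -0.84, SE 0.09, adjusted p = 2.57e-05). Slc40a1, the iron exporter ferroportin, measured 11.99, 11.91, 11.99, 11.94 and 12.002 against 11.72, 11.51, 11.68, 11.66 and 11.63, 1.25-fold lower (log2 fold change -0.33, SE 0.05, adjusted p = 0.00054). Beside these 2 falls, 3 of 15 genes of resident macrophages fell: their mean level was 9.71 to 9.87 in vehicle and 9.46 to 9.94 in 2BE arrays, and the part of macrophages in the falls was not tested.

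Cell cycle genes rose by small amounts. Of 18 measured genes of mitosis 16 rose (median 0.26) and of 17 of DNA replication 11 rose (median 0.20), with 0 falls in both in the limma test and 0 at an unadjusted p under 0.05. Mki67, a marker of cycling cells, measured 13.32, 13.44, 13.36, 13.43 and 13.35 against 13.65, 13.71, 13.66, 13.67 and 13.55, 1.20-fold higher (log2 fold change 0.27, SE 0.05, adjusted p = 0.00173), and the groups did not overlap. Cdc6, which loads the replicative helicase, rose 1.38-fold, with 10.86 to 11.09 in vehicle and 11.34 to 11.56 in 2BE arrays, and the kinesin Cenpe 1.30-fold. Top2a, the topoisomerase of mitotic chromosomes, did not pass (log2 fold change 0.05, SE 0.05, adjusted p = 0.541). In the fit over marrow and spleen together the rises numbered 0 in mitosis and 2 in DNA replication.

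**Figure D2:**
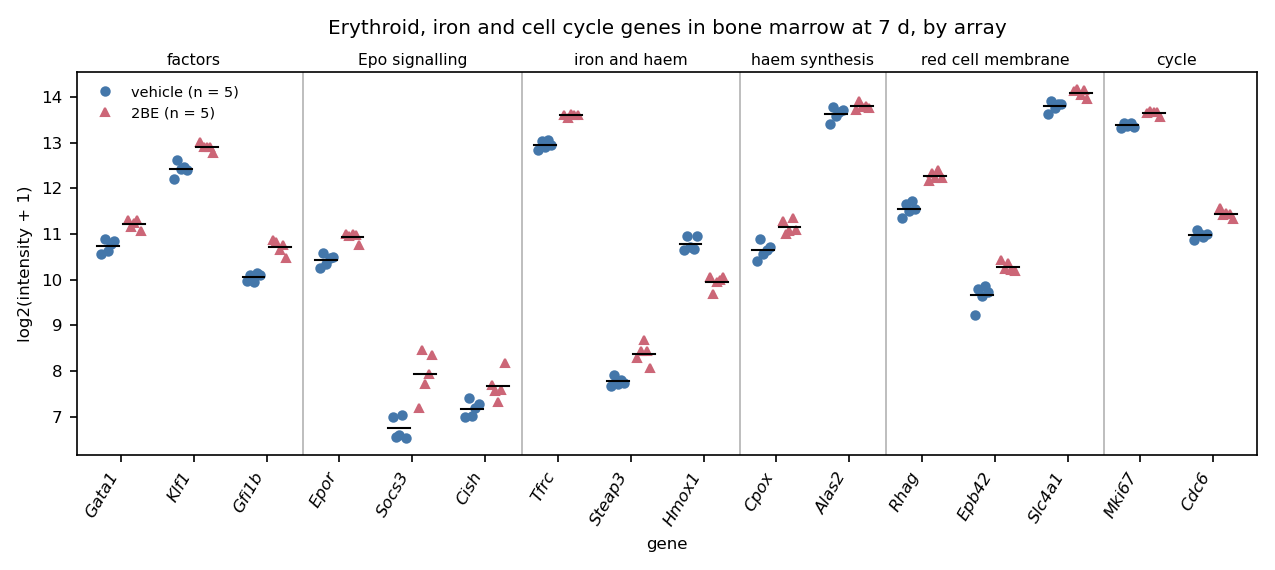
Values of 16 erythroid, iron and cell cycle genes on each array, as log2(intensity + 1); blue circles are vehicle arrays, red triangles 2BE arrays and black bars group means. Hmox1 is the only gene shown that is lower in 2BE; the groups of Cish and Alas2 overlap.

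Genes of bone and its matrix fell, with a wide spread among 2BE arrays. Of 92 measured genes in 8 lists of stroma and bone, 30 fell and 0 rose in the limma test (39 and 5 at an unadjusted p under 0.05), against 10.7% of all genes that fell. The median over the 92 was -0.12. Collagen genes led. Col1a1, the main chain of bone collagen, measured 13.77, 13.80, 13.64, 13.78 and 14.09 in vehicle and 12.36, 11.05, 11.23, 11.67 and 13.32 in 2BE arrays, 3.70-fold lower (log2 fold change -1.89, SE 0.32, adjusted p = 0.000929). Col5a2, which regulates fibril width, measured 11.42, 11.53, 11.16, 11.25 and 11.88 against 9.91, 8.92, 9.25, 9.62 and 10.90, 3.32-fold lower (log2 fold change -1.73, SE 0.28, adjusted p = 0.000582). Col11a1, a chain of cartilage and bone fibrils, measured 10.80, 10.99, 10.51, 10.52 and 11.15 against 8.98, 7.82, 7.98, 8.48 and 10.07, 4.38-fold lower (log2 fold change -2.13, SE 0.33, adjusted p = 0.000419). In all 3 genes 2BE replicate 5 was the highest of its group, 1 log2 unit or more above the 2BE mean, and yet below every vehicle array.

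Of 11 osteoblast and osteocyte genes 7 fell, with a median of -0.45, and 2 of the 7 are collagen genes. Ibsp, bone sialoprotein, measured 8.59, 8.78, 8.88, 8.99 and 9.17 against 8.26, 8.02, 8.43, 8.17 and 8.69, with overlapping groups (log2 fold change -0.57, SE 0.12, adjusted p = 0.00467). Alpl, the alkaline phosphatase of mineralising cells, fell by 0.56 on the log2 scale and Omd, osteomodulin, by 0.77, also with overlap. Of 18 matrix genes 9 fell. Lox, the enzyme that crosslinks collagen, fell 2.84-fold, the collagen-binding Sparc 2.76-fold and the proteoglycans Dcn and Lum 2.56-fold and 2.10-fold (adjusted p = 0.000255, 0.00164, 0.00201 and 0.00982). The array mean of the 18 matrix genes was 9.41 to 9.75 in vehicle and 8.60 to 9.49 in 2BE arrays, with 9.09, 8.60, 8.84, 9.10 and 9.49 in 2BE replicates 1 to 5. Col3a1 fell by 0.66 on the log2 scale, but the fall did not pass without vehicle replicate 1 or without vehicle replicate 5 (both -0.59). With the trend and robust options of limma, Omd, Lum and Col3a1 did not pass (adjusted p = 0.051, 0.0533 and 0.0721). Another probe set of Dcn gave 0.03, and 1 of Sparc gave -0.0049.

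Counts in the lists of cartilage, osteoclasts and vessels were not below the 10.7% of all genes that fell, but rest on 1 or 2 genes each. Of 9 chondrocyte genes 1 fell. Col2a1, the main cartilage collagen, measured 9.14, 10.55, 9.77, 9.83 and 10.21 in vehicle and 8.22, 7.99, 8.03, 8.24 and 9.17 in 2BE arrays, 2.97-fold lower (log2 fold change -1.57, SE 0.25, adjusted p = 5e-04), and the groups overlapped, with 2BE replicate 5 above vehicle replicate 1. Acan, the cartilage proteoglycan, was at 6.13 to 6.30 and 6.14 to 6.50 (log2 fold change 0.19, SE 0.07, adjusted p = 0.0714). Of 11 osteoclast genes 2 fell, a count that is 1 when any one of vehicle replicates 1, 3, 4 and 5 or 2BE replicates 2, 3 and 4 is left out. Acp5, the phosphatase that marks osteoclasts, measured 10.54 to 10.97 in vehicle and 10.71 to 11.18 in 2BE arrays (log2 fold change 0.19, SE 0.10, adjusted p = 0.21), and the factor Nfatc1 fell by 0.36 on the log2 scale. Of 14 endothelial genes 2 fell, among them Pecam1 (-0.60). The vessel cadherin Cdh5 and the receptor Kdr did not pass (-0.20 and -0.14, adjusted p = 0.0739 and 0.132), and Cdh5 passed without 2BE replicate 4 (-0.24).

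The niche signals that B cell precursors need did not pass the test. Cxcl12, the chemokine that holds them in the marrow, measured 12.20, 12.13, 12.20, 12.19 and 12.30 in vehicle and 11.88, 11.65, 12.06, 11.93 and 12.22 in 2BE arrays, which overlapped (log2 fold change -0.25, SE 0.09, adjusted p = 0.052). It passed in 9 alternatives with values of -0.32 to -0.22, of which the lowest was without 2BE replicate 5. Il7, their growth factor, measured 6.73, 6.86, 6.79, 6.46 and 6.65 against 6.48, 5.99, 6.54, 6.56 and 6.55 (log2 fold change -0.27, SE 0.11, adjusted p = 0.0876), with 2BE replicate 2 the lowest array. Of 14 genes of perivascular stroma 5 fell, with Pdgfra, the platelet-derived growth factor receptor, the most (-0.55). The growth factor binding proteins Igfbp4 (-0.34) and Igfbp5 (-0.29) fell too. The 5 became 3 when any one of vehicle replicates 3, 4 and 5 or 2BE replicates 2, 3 and 4 was left out. Pdgfra did not pass with the mean of its 3 probe sets (-0.19). Of 10 niche cytokines 1 fell, a count that is 0 when any one of vehicle replicates 3, 4 and 5 or 2BE replicates 1 to 4 is left out and 3 without 2BE replicate 5.

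Fat genes fell in 3 of 8: Car3, a carbonic anhydrase abundant in adipocytes, fell 2.97-fold with a wide spread in 2BE (11.44, 11.53, 11.29, 11.50 and 11.71 in vehicle, 10.31, 9.14, 9.40, 9.85 and 10.92 in 2BE, log2 fold change -1.57, SE 0.25, adjusted p = 0.000558). Lpl, the lipoprotein lipase, fell by 0.78 on the log2 scale and Adipoq, the adipocyte hormone, by 0.51. In the fit over marrow and spleen together the falls numbered 1 in fat, 2 in perivascular stroma, 1 in vessels and 0 in osteoclasts and in niche cytokines, and Car3 and Adipoq did not pass there (adjusted p = 0.304 and 0.751).

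**Figure D3:**
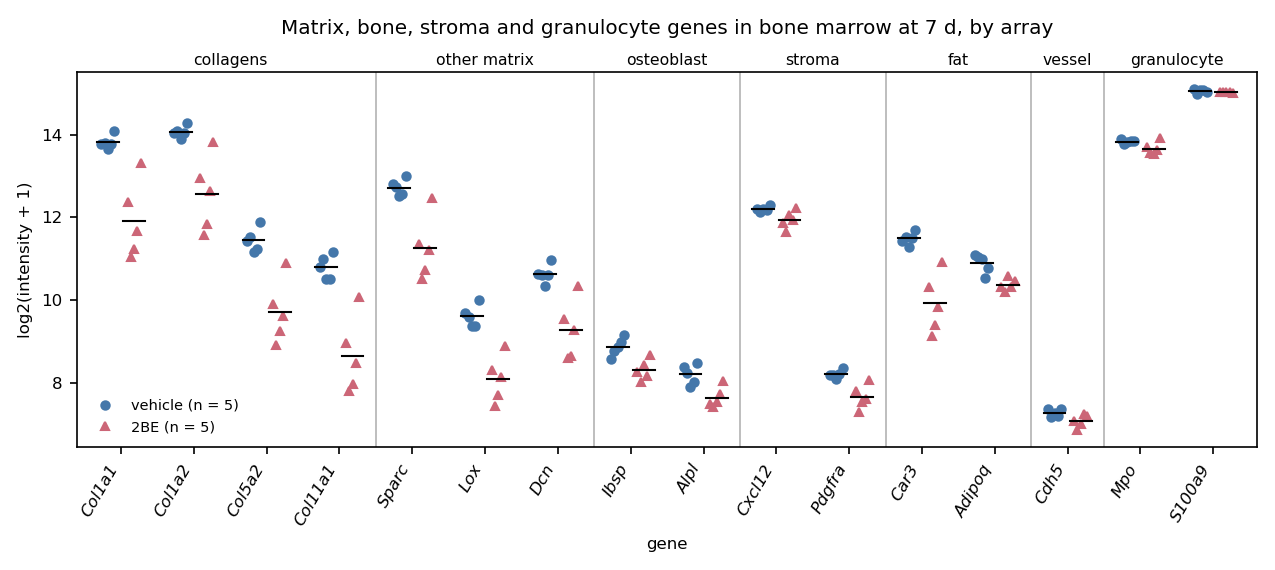
Values of 16 matrix, bone, stroma, fat, vessel and granulocyte genes on each array, as log2(intensity + 1); blue circles are vehicle arrays, red triangles 2BE arrays and black bars group means. Collagen and matrix genes fall with a wide spread among 2BE arrays, such as 11.05 to 13.32 in Col1a1, while Mpo and S100a9 stay within narrow bands.

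Few granulocyte genes passed the test. Of 76 measured myeloid genes 17 fell and 2 rose (30 and 7 at an unadjusted p under 0.05), against 10.7% and 9.4% of all genes that passed, with a median of -0.16. Mpo, the peroxidase of primary granules, measured 13.88, 13.77, 13.82, 13.84 and 13.85 in vehicle and 13.70, 13.55, 13.54, 13.63 and 13.91 in 2BE arrays (log2 fold change -0.17, SE 0.07, adjusted p = 0.104), with 2BE replicate 5 above every vehicle array. Of 7 primary granule genes 2 fell, all 7 were lower at an unadjusted p under 0.05, and all 7 fell without 2BE replicate 5. Prtn3, a protease of these granules, did not pass (log2 fold change -0.26, SE 0.09, adjusted p = 0.0528). It passed without 2BE replicate 5 (-0.35) and in other settings. Of the 2 that fell, Fcnb, a ficolin, had the larger fall (-0.31). The 2 became 1 when any one of vehicle replicates 1, 3, 4 and 5 or 2BE replicates 2, 3 and 4 was left out. Camp, the antimicrobial peptide of secondary granules, measured 14.68, 14.57, 14.60, 14.64 and 14.58 against 14.54, 14.52, 14.54, 14.53 and 14.56 (log2 fold change -0.08, SE 0.05, adjusted p = 0.251). S100a9, the calcium-binding protein of neutrophils, measured 14.99 to 15.10 and 15.01 to 15.04 (log2 fold change -0.03, SE 0.04, adjusted p = 0.737). Camp and S100a9 lie near the top of the scale, where a change may be understated. In the secondary granule list 1 of 10 genes fell, and 0 fell when any one array but vehicle replicate 2 and 2BE replicate 2 was left out. Of 10 mature neutrophil genes 0 changed in the limma test, and 1 had an unadjusted p under 0.05. Cxcr2, the chemokine receptor of neutrophils, had a log2 fold change of 0.29 (adjusted p = 0.124) and passed at 0.37 without 2BE replicate 5.

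Of 12 monocyte genes 3 fell, with Cx3cr1, the fractalkine receptor, at 7.87 to 8.19 in vehicle and 6.99 to 7.74 in 2BE arrays (log2 fold change -0.53, SE 0.13, adjusted p = 0.00905). Of the 15 macrophage genes 3 fell, a count of 1 without vehicle replicate 3 or 5 or 2BE replicate 2, of 5 without vehicle replicate 1 and of 9 without 2BE replicate 5. Axl, a receptor for dying cells, fell by 0.41 on the log2 scale, and Adgre1, which encodes F4/80, measured 9.46 to 9.63 and 9.19 to 9.46 (log2 fold change -0.17, SE 0.06, adjusted p = 0.0576), and passed in 8 alternatives with values of -0.19 to -0.17. Vcam1, the adhesion molecule of macrophages in erythroblast islands and of stroma, measured 12.15, 12.23, 12.36, 12.28 and 12.34 against 11.90, 11.96, 12.003, 12.06 and 12.44 (log2 fold change -0.20, SE 0.09, adjusted p = 0.136), and passed without 2BE replicate 5 (-0.29). Of 8 dendritic genes 5 fell, led by Tcf4 (-0.40) and Siglech (-0.26), both known from plasmacytoid cells, and 1 rose (0 without vehicle replicate 5). Other probe sets of Tcf4 gave -0.37 to 0.03. Mcpt8 and Cpa3, proteases of basophils and mast cells, fell by 0.34 and 0.31 on the log2 scale. Of 6 eosinophil genes 0 changed in the limma test (1 at an unadjusted p under 0.05). Epx, the eosinophil peroxidase, measured 10.97 to 12.58 in vehicle and 10.85 to 11.51 in 2BE arrays. In the fit over marrow and spleen together the falls numbered 1 in monocytes, 2 in dendritic cells, 1 in primary granules and 0 in secondary granules.

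The next counts stand beside the 9.4% of all genes that rose and the 10.7% that fell. Of 10 megakaryocyte genes 0 changed in the limma test (4 at an unadjusted p under 0.05, all lower in 2BE). Pf4, platelet factor 4, measured 13.18 to 13.37 in vehicle and 12.83 to 13.21 in 2BE arrays. Of 11 stem and progenitor genes 2 fell; Myb, which progenitors and B cell precursors need, measured 12.12, 12.03, 12.30, 12.23 and 12.16 against 11.59, 11.15, 11.39, 11.41 and 11.76, 1.63-fold lower (log2 fold change -0.71, SE 0.09, adjusted p = 0.000153), while Cd34, a marker of progenitors, had a log2 fold change of -0.23 (adjusted p = 0.0828). Of 11 T cell genes 4 fell. Of the receptor chains, Cd3g had a log2 fold change of -0.39 and Cd3e of -0.10 (adjusted p = 0.00062 and 0.283), and Cd3d did not pass. Cd3g was low, with means of 5.96 in vehicle and 5.57 in 2BE, under the median of all probe sets (6.47). Of 9 NK cell genes 2 fell, a count that is 0 without vehicle replicate 1, vehicle replicate 4 or 2BE replicate 3 and 1 without 2BE replicate 1, 2 or 4. In the fit over marrow and spleen together 0 T cell and 0 NK cell genes fell. For tissues other than marrow, the mean of 10 skeletal muscle genes was 6.69 to 7.15 in vehicle and 6.56 to 7.64 in 2BE arrays, with 1 rise that did not pass when any one of vehicle replicates 1, 3 and 4 or 2BE replicates 1 and 5 was left out, and that of 6 hepatocyte genes 5.95 to 6.66 and 6.05 to 6.27.

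**Figure D4:**
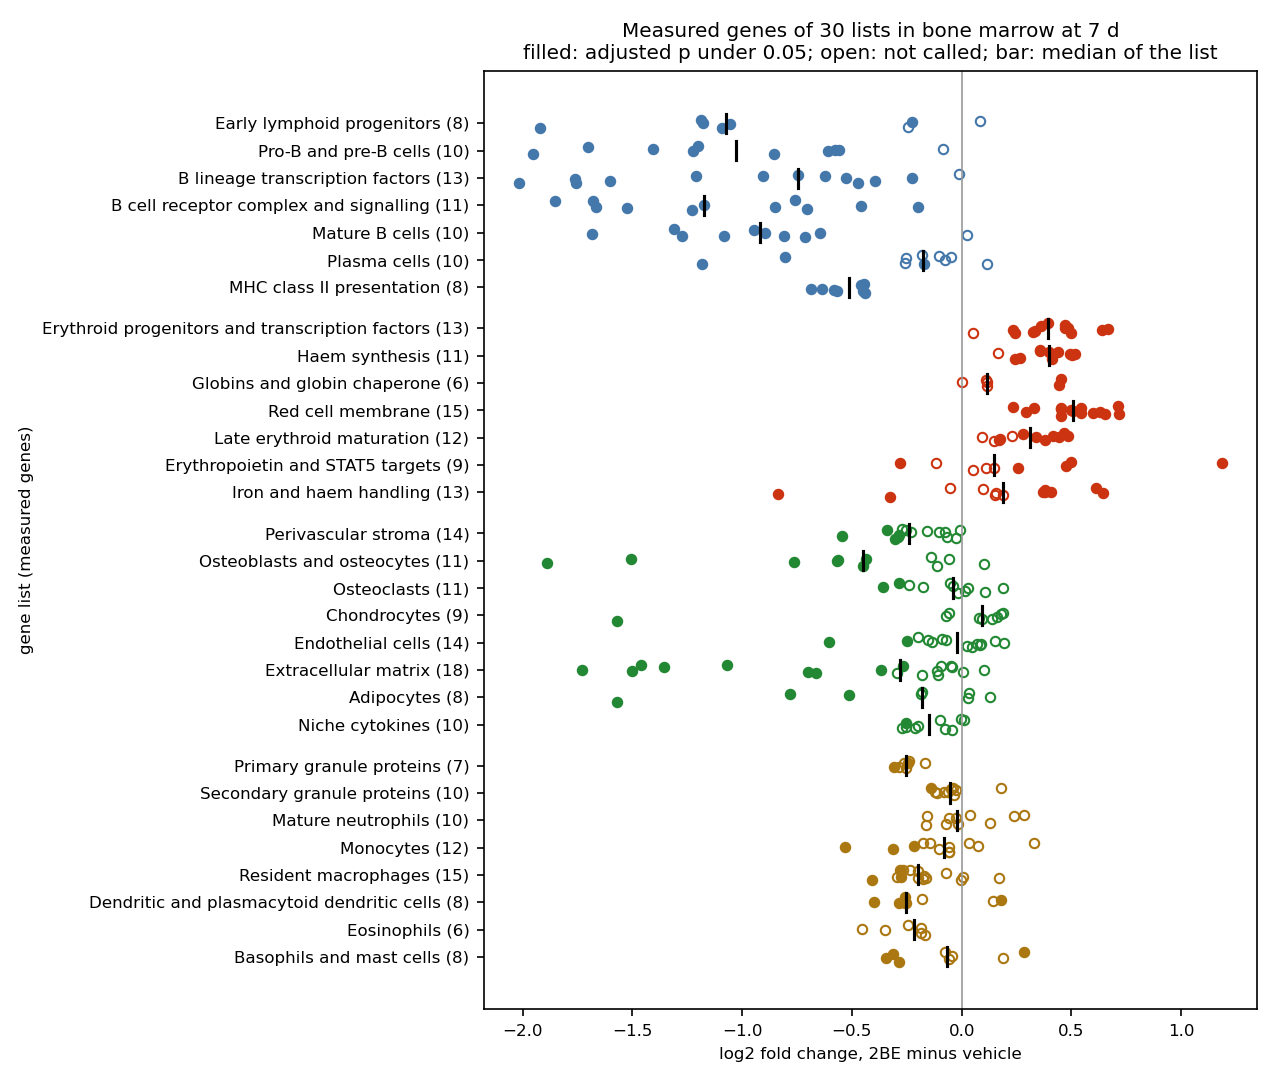
Log2 fold change (2BE minus vehicle) of each measured gene in 30 lists, 1 row per list with the number of measured genes; filled points passed at an adjusted p under 0.05, open points did not, and the bar is the median of the list. B lineage lists lie to the left with medians from -1.17 to -0.18, the 4 main erythroid lists to the right with medians from 0.31 to 0.51, and the myeloid lists have medians from -0.26 to -0.02.

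Some of the largest rises were outside these lists. Plek2, a pleckstrin family protein of late erythroblasts, had the largest rise named, from 6.57, 6.98, 6.55, 6.95 and 6.71 to 8.44, 8.28, 8.33, 8.65 and 8.25, 3.12-fold (log2 fold change 1.64, SE 0.10, adjusted p = 2.05e-06). Apol11b, of the apolipoprotein L family, rose 2.52-fold, with 9.31 to 9.51 in vehicle and 10.46 to 11.11 in 2BE arrays. Redrum, a long noncoding RNA of erythroid cells, rose 1.83-fold, and Mllt3, a chromatin reader that acts in stem and erythroid cells, 1.74-fold (log2 fold change 0.80). Other probe sets of Mllt3 gave log2 fold changes of 0.18 to 0.44. Syt14, Ninl, Bex4, Rgcc and Tlcd4 rose 2.36, 2.23, 1.94, 1.78 and 1.72-fold. Enzymes of amino acid and folate metabolism were among the 15 largest rises. Asns, asparagine synthetase, rose 1.76-fold (10.03 to 10.34 in vehicle, 10.76 to 11.46 in 2BE arrays) and Mthfd2 1.83-fold. Mgp, an inhibitor of calcification, was 1.75-fold higher (log2 fold change 0.81, SE 0.21, adjusted p = 0.0144), but its 2BE values were 8.93, 9.36, 8.88, 8.89 and 10.17, with replicate 5 the highest, against 8.07 to 8.75 in vehicle arrays, and it did not pass with the trend and robust options of limma.

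Counts in the stress and signalling lists are read against the 9.4% of all genes that rose and the 10.7% that fell. Of 13 glucocorticoid-responsive genes 3 rose and 1 fell, the fall only with vehicle replicates 1, 3 and 4 and 2BE replicates 1, 3 and 4 all kept. Mt2 and Mt1, metallothioneins that also respond to metals, rose 1.89-fold (10.02, 10.23, 10.10, 10.16 and 10.25 against 11.02, 11.02, 10.85, 11.14 and 11.32) and 1.47-fold, and Dusp1, a phosphatase of kinase signalling, rose by 0.55 with 2BE replicate 2 highest. The zinc transporter Slc39a8 rose 1.83-fold. Of 16 hypoxia-inducible genes 1 rose, Pdk1, a kinase that curbs entry of pyruvate into mitochondria (0.49), and 1 fell. Other probe sets of Pdk1 gave 0.0023 to 0.20. The 1 rise became 2 without vehicle replicate 1 or 2BE replicate 1, and the 1 fall 2 without vehicle replicate 2. Vegfa, the vessel growth factor, measured 7.15 to 7.40 and 6.83 to 7.28 (log2 fold change -0.09, SE 0.08, adjusted p = 0.53). Of 10 p53 targets 2 rose and 1 fell; the 2 became 1 when any one of vehicle replicates 1 and 3 or 2BE replicates 2 and 3 was left out, and the 1 became 0 without vehicle replicate 1 or 3 or 2BE replicate 3 or 4. Cdkn1a, the cell cycle inhibitor of the list, had a log2 fold change of -0.06 (adjusted p = 0.623). Of 13 interferon-response genes 1 rose, or 2 without 2BE replicate 5. In the fit over marrow and spleen together 0 genes rose in the p53 and interferon lists, and 0 fell in the glucocorticoid list.

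The spleen of the same study at 7 d, with 5 arrays of 2BE and 5 of vehicle, allowed a test of where the marrow response differed. Tissues may have been normalized separately, so the 2 responses were compared as a difference of log2 fold changes (marrow minus spleen). The responses differed in 7905 genes (43.5%), of which 4468 were higher in marrow (24.6%) and 3437 lower (18.9%). In the spleen 68.4% of genes passed the test of 2BE against vehicle.

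Erythroid genes rose in marrow by a fraction of their rise in spleen. All 15 red cell membrane genes and 11 of 11 haem synthesis genes had a lower response in marrow, and 12 of 13 progenitor genes; the median response of membrane genes was 0.51 in marrow and 3.15 in spleen. Rhag rose by 0.72 in marrow against 3.40 in spleen, a difference of -2.69 (SE 0.37, adjusted p = 5.83e-06). Tfrc rose by 0.64 against 2.59, and Mki67 by 0.27 against 2.38. The starting levels differed as well. Rhag averaged 11.56 in vehicle and 12.27 in 2BE marrow, and 9.31 and 12.71 in spleen. Mki67 averaged 13.38 and 13.65 in marrow, and 11.585 and 13.96 in spleen. The part of the starting level in these gaps was not tested. Epb42 and Sox6 had the widest gaps of the named erythroid genes, with differences of -3.18 and -3.02. Socs3 went the other way: it rose by 1.19 in marrow and had a log2 fold change of -0.45 (SE 0.28) in spleen, a difference of 1.63 (SE 0.40, adjusted p = 0.00202).

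For B lineage genes the tissues differed in some members and not in others. Rag1 fell by 1.92 on the log2 scale in marrow and had a log2 fold change of 0.08 in spleen, a difference of -1.999 (SE 0.27, adjusted p = 3.32e-06). In spleen it averaged 4.02 in vehicle and 4.10 in 2BE arrays, low values at which a fall could hardly show. Of 10 pro-B and pre-B genes 5 had a lower response in marrow and 1 a higher one. Among the 5, Vpreb1 was also low in spleen, with means of 5.05 in vehicle and 5.13 in 2BE arrays. For genes that low in spleen the difference mostly restates the fall in marrow. For Cd79a, which all B cells share, the response was -1.85 in marrow and -1.82 in spleen, with a difference of -0.04 (SE 0.26, adjusted p = 0.925). Bach2, Niban3, Vpreb3 and Pou2af1 did not pass the test of a difference, which does not show that they responded alike. Vpreb3 passed without marrow 2BE replicate 1 or 5 (-0.78 and -0.77) and with further quantile normalization within each tissue (-0.74). Of 10 plasma cell genes 9 had a higher response in marrow, where the median was -0.18 against -1.07 in spleen. Among the 9, Prdm1 was low in marrow, with a vehicle mean of 5.84 against 7.89 in spleen, where it fell by 1.08. Of 42 collagen chains, 14 had a lower response in marrow than in spleen and 6 a higher one. In spleen the log2 fold change of Col1a1 was -0.44 and that of Col5a2 -0.0024, with differences of -1.45 and -1.73 (SE 0.38 and 0.32, adjusted p = 0.00355 and 0.00019). Col1a2 and Col3a1 did not pass the test of a difference (-0.87 and -0.36, adjusted p = 0.0581 and 0.232). All 14 endothelial genes had a higher response in marrow, with medians of -0.02 in marrow and -0.85 in spleen.

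**Figure D5:**
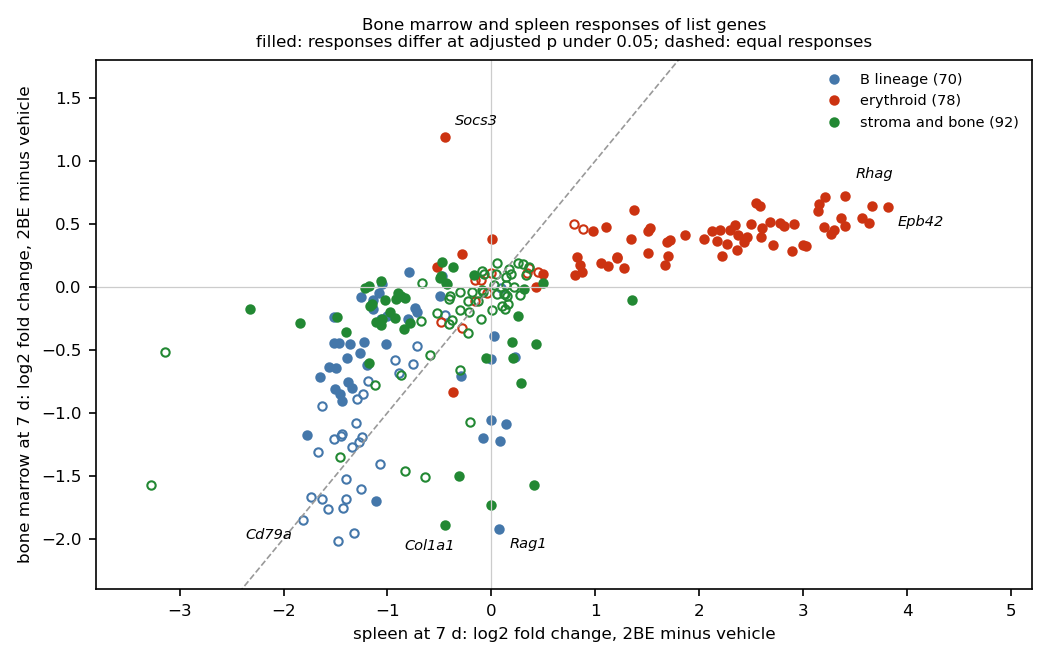
Response of list genes to 2BE in spleen (x axis) and bone marrow (y axis) at 7 d, both as log2 fold change of 2BE minus vehicle; colours mark the role, filled points have responses that differ at an adjusted p under 0.05, and the dashed line marks equal responses. The erythroid gene Epb42 lies at a log2 fold change of 3.81 in spleen and 0.63 in marrow, and Rag1 lies at 0.08 in spleen and -1.92 in marrow. Rag1 was low in spleen, with a mean of 4.02 in vehicle arrays.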

How the data were processed

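Each array was an Affymetrix array with biotin-labelled RNA. Per the submitters' processing notes the authors used RMA, a method of background correction, normalization and summary over probes. Its version was not given in the sources used here. Intensity values were deposited by the authors in 1 table, on a linear scale (6.16 to 47797.8), which were analysed as log2(intensity + 1), a scale that understates the change of low genes. For each of 18193 genes, the probe set of highest mean across the 44 arrays was kept; of 45037 probe sets that are not controls, 34945 had 1 symbol in the platform annotation, 932 several and 9160 none, and the latter 2 kinds entered no gene test. Linear models (limma 3.58.1, R 4.3.3; lmFit, then eBayes without trend or robust options) were fitted over the 10 marrow arrays, and over 20 arrays of marrow and spleen at 7 d for the difference between tissues. Tests were two-sided with Benjamini-Hochberg adjustment over all 18193 genes, and a gene was called at an adjusted p under 0.05. The number of arrays limits the precision. On simulated data the marrow fit recovered 22% of genes changed by 0.25, 90% by 0.5 and 100% by 1 on the log2 scale. For the tissue difference the shares were 4%, 46% and 100%. Only 50 of 18193 genes were changed at each size, while 3651 passed in the marrow data. The adjusted threshold was therefore stricter in the simulation, and these shares do not give the recovery in the data.

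The comparison, the 42 gene lists and the promoters were chosen with earlier results of these data known. Of 510 listed genes 458 were measured. Genes named are the 15 largest rises and 15 largest falls that were called with groups apart and a higher mean above the median of all probe sets (clone-like symbols left out), up to 6 called members and the first 3 markers of each list, 10 fixed genes (Hmox1, Alas2, Tfrc, Epor, Gata1, Cxcl12, Il7, Mki67, Cdkn1a, Vegfa) and up to 8 genes per direction for the tissue difference; fewer were printed. Alternatives changed the pseudocount, the filter on low values, the normalization, the probe set rule, the model options and the arrays left out. Promoter windows came from RefSeq (GRCm38.p6).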

Additional observations from a re-analysis of the deposited data

Results flagged for a closer look

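Of 300 groups of 5 arrays of the named genes, 14 had 1 array far from the other 4 on the log2(intensity + 1) scale, 3 of them among vehicle and 11 among 2BE groups; chance flags about 1 in 20 groups. Vehicle replicate 1 was lowest for Tlcd4 (8.45), Axl (10.29) and Mcm2 (11.22). 2BE replicate 2 was lowest for Tfrc (13.55), Il7 (5.99), Pf4 (12.83), Ppbp (13.53) and Igfbp5 (10.86), and highest for Dusp1 (10.94). 2BE replicate 5 was highest for H2-Ab1 (10.25) and Col2a1 (9.17) and lowest for Epor (10.76). 2BE replicate 1 was lowest for Jchain (11.06) and Acan (6.14).

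The marrow and spleen responses were compared as the difference of log2 fold changes (marrow minus spleen), tested with limma. The responses differed for 90 of the 150 named genes, 63 lower and 27 higher in marrow. Over all genes 43.5% differed, 18.9% lower and 24.6% higher in marrow. Some genes were named because they passed this test, so the counts of named genes are partly fixed by that choice. Of 18 genes whose values were followed in both tissues under every alternative, 14 differed, a count that the same choice affects. The difference was -1.88 for Plek2, -2.92 for Tlcd4, -3.02 for Sox6, -2.69 for Rhag, -3.18 for Epb42, -1.94 for Tfrc, -0.96 for Alas2 and -2.11 for Mki67. It was -1.999 for Rag1, which was low in spleen (4.02 in vehicle arrays), -1.45 for Col1a1 and -1.73 for Col5a2. In the positive direction it was 1.63 for Socs3, 1.39 for Mgp and 1.56 for Igfbp5.

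Of 10092 probe sets with several symbols or none, which entered no gene test, 798 (7.91%) passed a limma test of their own in marrow, 207 higher and 591 lower in 2BE.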

How the results depend on the processing

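The 3651 changed genes became 2324 when the spread was estimated over marrow and spleen arrays together, and 342 (87 higher, 255 lower) when a change of at least 1.5-fold was also asked for. The other 11 settings gave 3582 to 4081, and leaving out 1 array at a time gave 2871 to 3840. Median centring gave 3631, of which 56.6% were higher, against 46.8% of the 3651. The count of genes whose response differed between marrow and spleen, 7905, was 7046 to 8211 in 5 other settings and 7199 to 9409 with 1 array left out. Of 150 named genes 121 were called; 95 of these stayed called in every setting but the one on fold, which lost 44, and 26 did not. The fit over marrow and spleen lost 21 calls, and leaving out arrays lost only those of Hbb-b2 and Col3a1. Among the uncalled, 13 passed in some setting, and 0 named genes changed direction. For the count of 2324 the cause was not tested.

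Replicate numbers recur in both groups. Same-numbered arrays had correlations of their deviations from the group means of -0.09 to 0.16, over 0.1 in 4 of 5 pairs, against -0.21 to 0.25 between arrays of other numbers, and 6 of 10 arrays correlated best with their own number. Pairing asked for every pair over 0.1, so it was not taken as shown. Under a replicate block 3597 genes changed in marrow, 3284 of them shared with the 3651, and 8211 differed between tissues. The block moved the falls from 2 to 4 in NK cells, from 1 to 3 in niche cytokines and from 1 to 0 in secondary granules and the glucocorticoid list, and the rises from 1 to 2 in the interferon list.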

Other observations

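Families outside the lists were looked at after their values were seen, and are described with no test of the family. Of 39 proteasome subunits 10 rose and 3 fell, against 9.4% and 10.7% of all genes, and the 3 that fell are the catalytic subunits of the immunoproteasome, which interferon-exposed and lymphoid cells carry: Psmb8 (log2 fold change -0.53, SE 0.07), Psmb9 (-0.38, SE 0.07) and Psmb10 (-0.43, SE 0.07). The rises were small, with Psmc4, an ATPase of the cap, at 0.44 (SE 0.12). Of 17 cytosolic aminoacyl-tRNA synthetases, which charge tRNAs with amino acids, 9 rose and 0 fell in the limma test (11 and 1 at an unadjusted p under 0.05), led by Aars with 0.53 (SE 0.08), and Asns and Mthfd2 were among the largest rises. In spleen the median of the 17 was 0.15, and in marrow 0.26.

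The counts of the families below are also read against the 9.4% of all genes that rose and the 10.7% that fell. Of 42 collagen chains 14 fell and 0 rose (18 and 0 at an unadjusted p under 0.05), among them Col11a2 (-1.26, SE 0.19) and Col24a1 (-0.65, SE 0.08). Their median was -0.12 in marrow and 0.03 in spleen. Of 20 immunoglobulin chains and segments 8 fell and 0 rose (1 rose at an unadjusted p under 0.05), with Ighm, the heavy chain of IgM, at -0.71 (SE 0.11) and Iglv1, a lambda segment, at -1.45 (SE 0.19); such segments share sequence, so their values are uncertain. Of 4 measured members of the apolipoprotein L family 2 rose, Apol11b and Apol8 (0.66, SE 0.09). Of 49 cytosolic ribosomal protein genes 2 rose and 3 fell, both below the shares of all genes. This family was taken by symbol and includes related genes such as Rps27l (0.19), which rose, and Rpl39l (-0.25), which fell.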
